A study of Homo sapiens with 6 samples.

Results

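The small nuclear RNA 7SK, transcribed from the gene RN7SK on chromosome 6 from 52995620 to 52995951 (GRCh38, 332 bases), carried peaks in all 4 FLASH-seq peak lists examined. Every peak that overlapped this gene on either strand was taken. This gave 14 peaks of the 9974 in the 4 lists: 3 for replicate 1 of HSPA1A and 4 for its replicate 2, 3 for replicate 1 of HSPA8 and 4 for its replicate 2.

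The cells were HEK293 Flp-In T-Rex, a long-established line from human embryonic kidney with a transgene under tetracycline control. A GFP, HSPA1A or HSPA8 bait with a 3xFLAG-HBH tag was expressed from the transgene with 1 µg/ml tetracycline, so every library, including the GFP controls, comes from induced cells on top of the cell's own HSP70 proteins. HSPA1A is the stress-inducible cytosolic HSP70 chaperone and HSPA8 its constitutive relative. FLASH-seq crosslinks RNA to the bait with ultraviolet light, purifies the bait and sequences the trimmed RNA. Each bait had 2 biological replicates, and GFP peaks (2 libraries) were not analysed here, so the values below have no control-bait background beside them.

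7SK is made by RNA polymerase III and is one of the most abundant nuclear RNAs. It folds into stem-loops, of which the 5′ one holds HEXIM1 or HEXIM2 together with the kinase complex P-TEFb (CDK9 with cyclin T), and keeps that kinase inactive. LARP7 holds the 3′ stem-loop and the terminal U-run, MEPCE caps the 5′ end, and hnRNP proteins hold 7SK that has let go of P-TEFb. Release of P-TEFb lets RNA polymerase II leave its promoter-proximal pause.

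The lists held 2744 and 2059 peaks for HSPA1A and 3131 and 2040 for HSPA8, with a median width of 44 to 57 bases. Each peak has a whole-number score from the authors whose meaning is not stated, so scores were only ranked or described within a list. Of 59712 genes in the RefSeq table, at least 1 peak lay on 3.04% (replicate 1) and 2.00% (replicate 2) with HSPA1A, and on 3.05% and 1.28% with HSPA8. RN7SK was among the 0.873% of genes (521) with a peak in all 4 lists. Read depth is unknown, and nothing here separates binding from the abundance of an RNA.

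The peaks tiled almost the whole 7SK RNA in every library. In the following, bases are counted from 1 at the first annotated base of RN7SK. In HSPA1A replicate 1 the peaks ran from base 22 to 176, from 178 to 246 and from 247 to 331. In HSPA8 replicate 1 they ran from base 19 to 171, from 172 to 241 and from 246 to 331. Both lists thus split the RNA into a long 5′ peak, a middle peak and a 3′ peak.

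In HSPA1A replicate 2 there were 4 peaks, from base 27 to 88, from 89 to 151, from 155 to 177 and from 178 to 331. In HSPA8 replicate 2 the 4 peaks ran from base 39 to 91, from 92 to 187, from 190 to 227 and from 229 to 331. In both of these lists the 5′ part of the RNA was divided near the same base, at 88 and 91, whereas the first peak of the lists numbered 1 spanned it without a break.

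**Figure D1:**
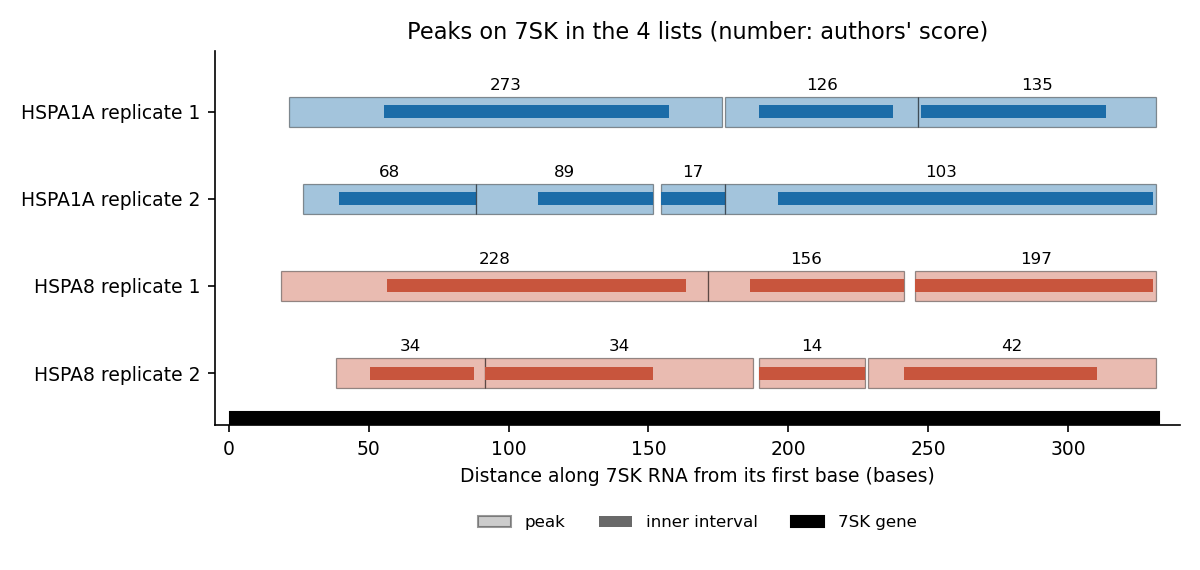
Peaks on 7SK in each list, placed by distance in bases from the first base of the RNA. Pale boxes are peaks, numbers the authors' score and the black bar the gene. Dark bars are the inner interval the authors give for each peak, narrower than the peak or equal to it. Each list tiles the RNA from a start between base 19 and base 39 to base 331.

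All 14 peaks lay on the plus strand and 0 on the minus strand. Over whole lists the plus strand held 54.9% and 63.7% of peaks with HSPA1A, against 58.9% and 79.4% with HSPA8. The HSPA8 lists also hold peaks on sequences outside the 25 chromosomes. Of the 2040 peaks of HSPA8 replicate 2, 1423 lay on the chromosomes. No peak reached past either end of the gene. Within 10 kb on either side of RN7SK there were 0 other peaks in each list, and the nearest peak downstream lay 223 kb away in all 4. GSTA4, which encodes a glutathione transferase and lies next to RN7SK on one side, carried 0 peaks in each list. CILK1, which encodes a kinase and is the neighbour on the other side, also carried 0.

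The 3′ edge was the same to the base in all libraries. The last peak of each list ended at base 331 (position 52995950), 1 base before the annotated end of the gene. The 5′ edge varied: the first peak began at base 22 and 27 with HSPA1A and at base 19 and 39 with HSPA8. Bases 1 to 18 lay under no peak in any list. The 5′ edges of the baits overlapped, since both HSPA1A values lay between the HSPA8 values.

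Peaks followed each other with almost no space between them. Of the 10 gaps between neighbouring peaks, 5 were of 0 bases and the largest was of 4. All 14 peaks on 7SK had a neighbour on the same strand within 5 bases. Over whole lists, peaks outside the chromosomes included, this held for 19.8% and 25.2% of peaks with HSPA1A, and 26.5% and 48.1% with HSPA8. When peaks within 50 bases were merged, 7SK carried 1 region in each list.

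The covered part of 7SK was 309 bases (93.1%) and 302 bases (91.0%) in the HSPA1A replicates. It was 309 bases (93.1%) and 290 bases (87.3%) in those of HSPA8. The baits overlapped, and HSPA8 replicate 2 was the lowest. With HSPA1A the mean was 92.0% ± 1.49 (SD, n = 2), and with HSPA8 it was 90.2% ± 4.05 (SD, n = 2). The baits differed by 1.81 percentage points, less than the replicate SD of HSPA8 (p = 1, two-sided exact permutation test). This was 0 in replicate 1 and 3.61 in replicate 2. Without HSPA8 replicate 2 its direction turned, to -1.05.

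The number of peaks did not separate the baits. Each bait had 3 peaks on 7SK in replicate 1 and 4 in replicate 2, a mean of 3.5 ± 0.707 (SD, n = 2) for both (p = 1 by a two-sided exact permutation test, which cannot go below 0.333 here). Of all genes, 0.239% and 0.144% had at least 3 peaks with HSPA1A, and 0.218% and 0.0971% with HSPA8. In all 4 lists 43 genes (0.0720%) had that many.

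High coverage of a whole gene was rare in these lists. At least 80% of the bases lay under peaks for 0.221% and 0.157% of all genes with HSPA1A, and for 0.270% and 0.131% with HSPA8. These shares were not matched for gene length, and with median peak widths of 44 to 57 bases a long gene could reach 80% only with many peaks. RN7SK was 1 of 44 genes (0.0737%) that met this in all 4 lists, of which 27 were annotated as rRNA and 8 as snRNA. Only 11 of the 44 were at least 200 bases long. RN7SK was among these 11, and the others were the ribosomal RNA genes and a pseudogene on chromosome 21, the mitochondrial RNR1 and the U3 snoRNA gene SNORD3B-1.

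Base by base, 282 of the 332 bases (84.9%) lay under a peak in all 4 lists, 23 in 3 lists, 5 in 2 and 3 in 1. The 19 bases under no peak were bases 1 to 18 and base 332. With the RNA divided into 4 equal segments, the first (bases 1 to 83) was covered to 74.7% and 68.7% with HSPA1A and to 78.3% and 54.2% with HSPA8. Each of the other 3 segments was covered to at least 95.2% in every list. Most of the uncovered bases thus lay in the 5′ segment. Peak positions were not set against the stem-loops.

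For each peak the authors also give an inner interval, narrower than the peak or equal to it. Its meaning is not stated and its first base is uncertain by 1. These intervals left more of the RNA open, covering 65.1% and 74.4% of it with HSPA1A and 74.4% and 61.4% with HSPA8. Of the 332 bases, 166 lay inside an inner interval in all 4 lists. They formed 4 blocks, at bases 57 to 87, 111 to 151, 197 to 227 and 248 to 310. The widest block, of 63 bases, was the one nearest the 3′ end. Between the blocks, bases 178 to 186 lay in no inner interval of any list.

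**Figure D2:**
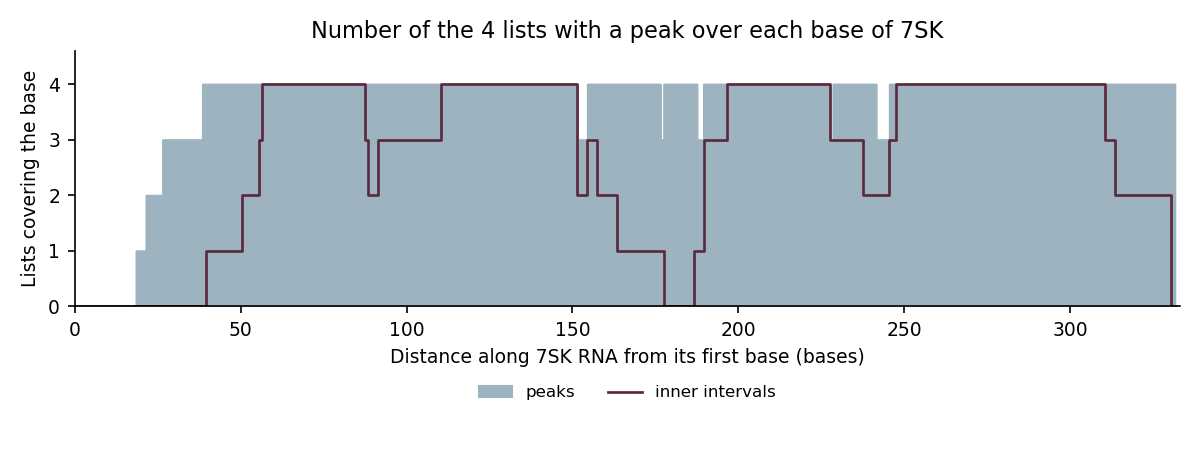
Number of the 4 lists with a peak (filled) or an inner interval (line) over each base of 7SK, against the distance in bases from the first base. Peaks of all 4 lists cover 282 bases, and the inner intervals of all 4 meet in 4 blocks with a stretch from base 178 to 186 that holds none.

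The libraries were then compared in pairs by the bases of 7SK under peaks of both, as a percentage of the bases under peaks of either. The replicates of HSPA1A shared 97.1% and those of HSPA8 91.4%. Across baits, the lists numbered 1 shared 97.4%, those numbered 2 shared 94.1%, and the remaining pairs shared 93.2% and 95.2%. The within-bait mean of 94.2% lay under the between-bait mean of 95.0%. Within minus between was -0.759 percentage points (p = 0.667 by a one-sided exact permutation test on the 3 ways to pair the lists, with 0.333 as its minimum). The sign of this difference changed without either HSPA8 list, to 3.43 without replicate 1 and 0.771 without replicate 2. With inner intervals, an alternative added after seeing the data, the within-bait mean was 70.7% and the between-bait mean 78.0% (one-sided exact permutation, p = 1). Both tests ask only whether lists of the same bait share more bases. The p of 1 therefore means that pairing by bait gave the lowest sharing of the 3 pairings, not that the means were alike.

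The borders of the peaks were compared next. A pair of peaks was counted as matched when they shared at least 80% of the wider peak. HSPA1A replicate 1 and HSPA8 replicate 1 matched in 3 of 3 peaks on 7SK, with shares of 96.8%, 91.4% and 98.8%. The replicates of HSPA1A matched in 0 peaks and those of HSPA8 in 1, the 3′ peak. Of the other pairs of lists, 2 matched in 1 peak and 1 in 0. Over all peaks on the chromosomes, matches were taken as a share of the peaks of the shorter list. Across baits, the lists numbered 1 matched in 37.9% and those numbered 2 in 56.9%. The replicates of HSPA1A matched in 39.3% and those of HSPA8 in 32.2%. The remaining pairs matched in 42.9% (HSPA1A replicate 1 with HSPA8 replicate 2) and 29.4%. These counts on 7SK rest on 3 or 4 peaks a list and were not tested.

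Scores along 7SK were described within each list, since the lists differ in the scale of their scores. In HSPA1A replicate 1 the scores from the 5′ to the 3′ end were 273, 126 and 135. In HSPA1A replicate 2 they were 68, 89, 17 and 103. In HSPA8 replicate 1 they were 228, 156 and 197, and in HSPA8 replicate 2 they were 34, 34, 14 and 42. The 5′ peak scored highest in both lists numbered 1, and the 3′ peak in both lists numbered 2. In the lists numbered 2 the bases of that 5′ peak were divided among several peaks, so these scores belong to unlike stretches.

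The score went with the width of the peak. The widest peak was the highest-scoring and the narrowest the lowest-scoring on 7SK in each of the 4 lists. The widest peaks measured 155 and 154 bases with HSPA1A and 153 and 103 bases with HSPA8. The narrowest measured 23 bases, the peak from base 155 to 177 in HSPA1A replicate 2. Over all peaks of a list the rank correlation between width and score was 0.370 and 0.378 for HSPA1A and 0.446 and 0.482 for HSPA8, across peaks, which are not independent replicates.

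Per base of width, scores on 7SK ranged from 1.59 to 1.83 in HSPA1A replicate 1 and from 0.669 to 1.41 in HSPA1A replicate 2. With HSPA8 they ranged from 1.49 to 2.29 in replicate 1 and from 0.354 to 0.642 in replicate 2. With HSPA8 in replicate 1 the middle and 3′ peaks, at 2.23 and 2.29, lay above the 5′ peak, at 1.49. In HSPA1A replicate 2 the 3′ peak had the lowest value, 0.669, although its score was the highest. In HSPA8 replicate 2 the first peak had the highest value, 0.642, and the 3′ peak, highest by score, had 0.408. The order of the parts of 7SK by score thus differed from their order by score per base in these lists.

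Within its own list, the best 7SK peak stood at the percentile 88.7 of all scores in replicate 1 of HSPA1A and 85.2 in its replicate 2. For HSPA8 these percentiles were 83.4 and 63.8. It ranked 312th of 2744, 305th of 2059, 521st of 3131 and 739th of 2040 peaks. The value of HSPA8 replicate 2 was the lowest of the 4. Its median score over all peaks was 22, against 10 to 13 in the others, and a higher share of its peaks (48.1%) had a close neighbour. Of its 2040 peaks, 1423 lay on the chromosomes present in all 4 lists, and among those peaks the percentile was 68.9, against 88.6 for HSPA8 replicate 1. With each gene taken by its best peak, the percentiles were 93.4 and 86.2 with HSPA1A and 94.3 and 74.7 with HSPA8. The value of HSPA8 replicate 2 was the lowest on each of these bases, whereas the order of the replicates numbered 1 turned over genes. The part of the median score and of close neighbours in the low percentile was not tested. Of the 14 peaks, 13 scored above the median of their list, the exception being the peak from base 190 to 227 in HSPA8 replicate 2, with a score of 14.

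7SK was set beside 3 other RNAs of RNA polymerase III: RMRP and RPPH1, the RNAs of the endonucleases RNase MRP and RNase P, and RN7SL1, an RNA of the signal recognition particle. RMRP (chromosome 9, 35657750 to 35658019) was covered to 90% and 67.0% with HSPA1A and to 98.5% and 70.7% with HSPA8. RPPH1 (chromosome 14, 20343071 to 20343411) was covered to 92.4% and 61.9% with HSPA1A and to 69.2% and 46.9% with HSPA8. RN7SL1 (chromosome 14, 49586580 to 49586878) was covered to 84.6% and 59.2% with HSPA1A and to 100% and 18.4% with HSPA8. Its close copy RN7SL2 makes its peaks uncertain between genes.

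Coverage of 7SK spanned 87.3% to 93.1% over the 4 lists, and that of the other 3 RNAs spanned a wider range. 7SK was covered further than RPPH1 in 4 of 4 lists, by a mean of 23.5 percentage points ± 16.7 (SD, n = 4; exact sign-flip permutation test, two-sided, p = 0.125, adjusted p = 0.250 over 6 comparisons). The test cannot go below 0.125. It was covered further than RMRP in 3 of 4 lists (mean 9.54 ± 13.2 SD, n = 4; exact permutation p = 0.375, adjusted 0.450) and further than RN7SL1 in 3 of 4 (mean 25.6 ± 33.0 SD, n = 4; exact permutation p = 0.250, adjusted 0.375). None of these differences passed the test.

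By the percentile of the best score, 7SK lay above RPPH1 and above RN7SL1 in 4 of 4 lists, by a mean of 16.8 and 29.0 points (exact sign-flip permutation, two-sided, p = 0.125 and adjusted p = 0.250 for each, n = 4). RMRP stood at the percentiles 84.6 and 93.8 with HSPA1A and 73.2 and 77.2 with HSPA8. 7SK exceeded it in both lists numbered 1 and lay below it in both lists numbered 2 (mean difference -1.92 points; exact permutation, p = 0.875, n = 4). The order of 7SK and RMRP was therefore not settled by these lists.

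**Figure D3:**
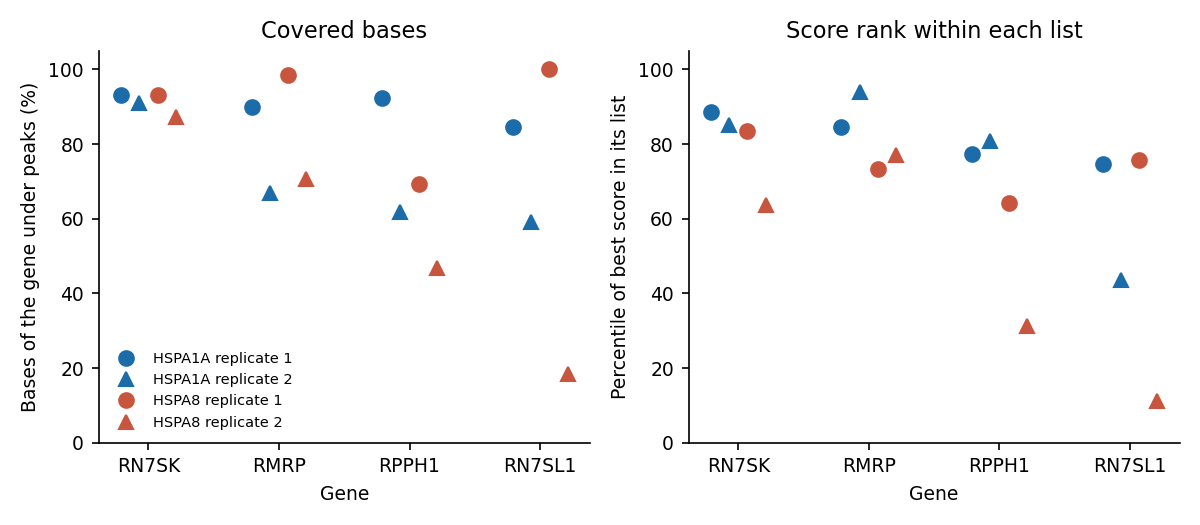
Bases under peaks as a percentage of the gene (left) and percentile of the best score in its own list (right) for 4 RNAs of RNA polymerase III. Each symbol is 1 list. The 4 values of RN7SK lie between 87.3% and 93.1% in the left panel, and its HSPA8 replicate 2 value of 63.8 is the lowest of the gene in the right panel.

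The genome holds many pseudogenes of 7SK, copies of the RNA that were inserted elsewhere, and reads from 7SK could match them. The RefSeq table names 293 of them (RN7SKP and a number), of which 65 and 42 had a peak with HSPA1A and 53 and 20 with HSPA8. These are 22.2% and 14.3%, and 18.1% and 6.83%, of the 293. The share of all genes with a peak was 3.04% and 2.00%, and 3.05% and 1.28%. A peak in any list was found on 74, in at least 2 lists on 56 and in all 4 on 19.

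None of the pseudogenes scored above RN7SK in its list. Their highest score was 214 and 81 with HSPA1A, against 158 and 32 with HSPA8, in each list on RN7SKP203 (chromosome 2, 76445170 to 76445410). This was 78.4% and 78.6% of the best RN7SK score with HSPA1A and 69.3% and 76.2% with HSPA8. Among the pseudogenes with a peak, the median best score was 7 to 12. How reads that match several places were handled is not given in the sources used here, so the share of 7SK peaks on either kind of gene is uncertain.

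The 4 other pseudogenes with the highest mean percentile were RN7SKP255, RN7SKP71, RN7SKP80 and RN7SKP230. The best score of RN7SKP255 was 45.4% and 70.9% of that of RN7SK with HSPA1A and 41.7% and 64.3% with HSPA8. RN7SKP71 and RN7SKP230 likewise stood at a higher percentage in both lists numbered 2 than in both lists numbered 1. RN7SKP80 did not, at 43.2% and 27.2% with HSPA1A and 53.9% and 42.9% with HSPA8. The peaks on each of these 5 pseudogenes covered between 20.2% and 81.7% of it, less than the 87.3% to 93.1% of RN7SK, and lay on 1 strand.

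**Figure D4:**
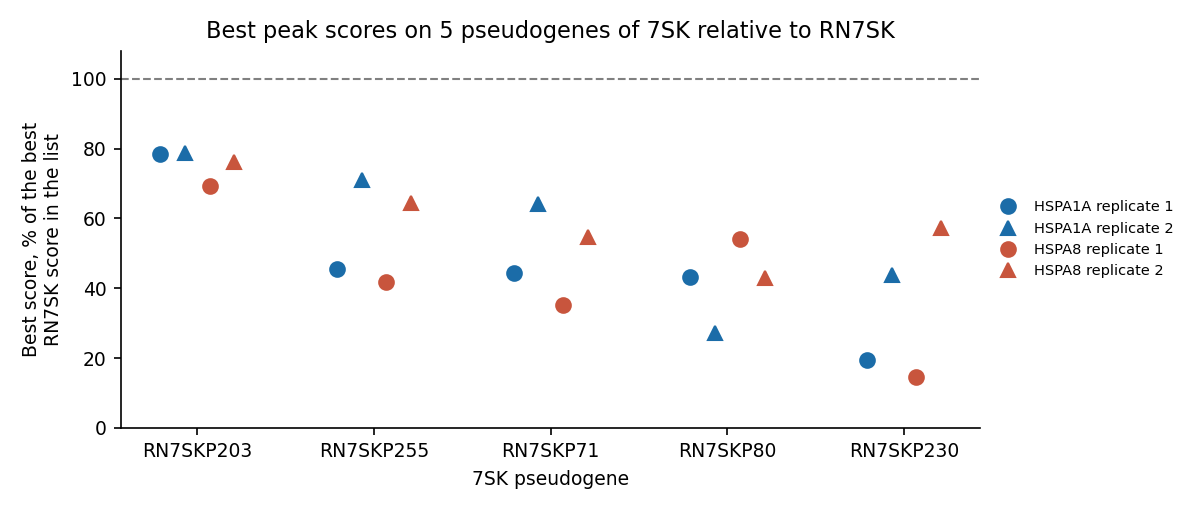
Best peak score on 5 pseudogenes of 7SK as a percentage of the best RN7SK score in the same list, with 1 symbol a list and a dashed line at the level of RN7SK. All values lie below the line, and RN7SKP203 lies between 69.3% and 78.6% in all 4 lists.

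The genes whose score percentiles were most like those of RN7SK were sought among 400 genes with a peak in all 4 lists, tRNA and rRNA genes and 7SK pseudogenes left aside. Likeness was the mean absolute difference in percentile over the 4 lists. The closest were RNU2-4P, a U2 pseudogene, and LINC00910, the non-coding gene that contains it, each at 2.73 points and with the same peaks. RNU6-36P, a U6 pseudogene, and PAFAH1B2P2, which contains it, followed at 3.81 points, and so did RNU6-9, a U6 gene, at 3.81. All of these peaks fall on copies of other abundant small nuclear RNAs, and 4 lists are too few for more than a description.

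Genes of proteins that work with 7SK or with P-TEFb, factors of pausing such as DSIF included, were counted by peaks on either strand. Of 19 such genes, 3 carried a peak in any list and 16 did not. The 3 were CCNT1, which encodes cyclin T1 of P-TEFb, SUPT5H, a subunit of the pausing factor DSIF, and HNRNPA2B1, an hnRNP protein. With HSPA1A, 3 of the 19 (15.8%) carried a peak in replicate 1 and 1 (5.26%) in replicate 2, against 3.04% and 2.00% of all genes. With HSPA8, 0 of 19 did in either replicate, against 3.05% and 1.28% of all genes. At those shares fewer than 1 of 19 genes would carry a peak, so the 0 of HSPA8 does not set these genes apart. All genes include tRNA genes and pseudogenes, and the shares were not matched for length or kind of gene. The counts were not tested.

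CCNT1 carried 1 peak in each HSPA1A list, with scores of 5 and 6 (percentiles 24.4 and 23.5 of their lists) and on opposite strands. SUPT5H carried 1 peak and HNRNPA2B1 carried 2, all in HSPA1A replicate 1 and with a best score of 5 (percentile 24.4). The peaks on these 3 genes thus scored low in their lists. HEXIM1, HEXIM2, LARP7, MEPCE, CDK9 and CCNT2, whose products bind 7SK or make up P-TEFb, carried 0 peaks in each list.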

How the data were processed

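FLASH-seq was done in HEK293 Flp-In T-Rex cells with GFP, HSPA1A or HSPA8 as bait, in 2 biological replicates each. The 4 deposited peak lists of HSPA1A and HSPA8, 1 per replicate, were used. Per the labels' protocols, random tags served to merge PCR duplicates. The submitters' processing notes name Trim Galore 0.4.4, FastQC, STAR 2.6.0b, deepTools and GRCh38. The peak caller and the handling of multiply matching reads are not given in the sources used here. The score was given by the authors, and its unit is not stated in the deposited files. Peak positions and inner intervals are as deposited, written 1-based.

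Gene positions came from the RefSeq table for GRCh38.p14 (59712 genes on 25 chromosomes), which gives no strand. A peak counted for a gene by an overlap of any length on either strand, and for every gene it touched. The percentile is the percentage of scores in the list at or below a score. Baits were compared by two-sided exact permutation tests over 6 label orders or by one-sided ones over 3 splits. Genes were compared by two-sided exact sign flips over 4 lists. Replicates were taken as biological per the labels. RN7SK, the compared RNAs, the list of partner genes (19 given; 1 more is not reported here) and the rules for named genes were chosen with earlier results of these data known. Named genes were RN7SK, the 3 compared RNAs, partners with a peak, neighbours within 10 kb, up to 5 pseudogenes with a peak in at least 2 lists by mean percentile, and the 5 genes most like RN7SK in percentile. Partners without a peak and the genes beside RN7SK among highly covered genes were named after their values were seen, and matches at 80% and inner intervals as an alternative were added after seeing the data. The software was scipy 1.17.1, numpy 2.4.6, matplotlib 3.10.9 and pandas 2.3.3 under Python 3.11.15. The functions for peak numbers and covered bases were tested on simulated peaks. Those for the label-order permutation and sign-flip tests were tested on small known cases. Pair overlaps, matches and merging were not tested in this way. Alternatives were a higher score, equal numbers of peaks, the plus strand, midpoints, merging, each replicate left out, a replicate block and other bases for the percentile.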

Additional observations from a re-analysis of the deposited data

How the results depend on the processing

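Of 43 values under other settings, 36 kept their direction or stayed within the spread between replicates, 3 moved and 4 reversed. Some of the 36 could not change. All 14 peaks lay on the plus strand and inside the gene, so the plus-strand and midpoint settings kept every peak. The replicate block returns the same mean difference by its arithmetic. The bait tests cannot reach a p below 0.333, so an unchanged call says nothing about stability. The difference in the number of peaks, 0 as reported, lay between -0.5 and 0.5 when a replicate was left out and was 0.5 with peaks at or above the median score. The difference in covered bases, 1.81 percentage points, lay between -1.05 and 4.67 when a replicate was left out, lowest without HSPA8 replicate 2. It was 7.53 with peaks at or above the median score, where HSPA8 replicate 2 loses the peak with a score of 14. The labels name no batch shared by libraries of a number. Deviations of same-numbered lists in peak presence correlated at -0.00249 over the 2927 genes with a peak in any list. This value leaves out a shift common to all genes, so it cannot show whether same-numbered lists share a batch. On 7SK both lists numbered 1 had 3 peaks and both numbered 2 had 4, and a batch was not tested. With the replicate block the differences were 0 in peaks and 1.81 in covered bases (exact sign-flip permutation, p = 1 for each). The within-bait minus between-bait difference, -0.759, was 0.144 as a percentage of the list that covers fewer bases, lay between -3.96 and 3.43 when a replicate was left out, and was -7.31 with inner intervals, chosen after seeing the data; the cause was not tested. The percentile of the best score moved in HSPA1A replicate 1 to 93.4 over genes and to 83.0 for the median peak, and in HSPA1A replicate 2 to 82.5 for the median peak. Larger shifts in HSPA8 stayed within its wider replicate spread: from 83.4 to 94.3 and from 63.8 to 74.7 over genes, and to 88.6 and 68.9 on the chromosomes of all lists. Read depth is unknown and limits every comparison.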
